A study of Mus musculus with 4 samples.

Results

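The creatine kinase system of the brain cortex was described through 7 genes, chosen by their symbols and each measured by 1 probe set, out of 19505 named genes on the array. They were the mitochondrial creatine kinases Ckmt1 and Ckmt2, the cytosolic creatine kinases Ckb and Ckm, the creatine synthesis enzymes Gatm and Gamt, and the creatine transporter Slc6a8. The group was put together with the difference of Ckmt1 between the treatments already known, so the values of the 7 genes are given as a description and without a test.

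The tissue was brain cortex. The mice were SAMP8 males, from an inbred strain with accelerated ageing and early memory loss. Mice of both groups were kept singly in cages from 7 months of age for 4 months, and treatment began at 11 months of age and lasted 1 month. The TCQA group was dosed by mouth each day with TCQA, a compound named in the labels by this abbreviation only, at 5 mg/kg, and the control group with MilliQ water. Each group had 2 Clariom S arrays, on which each probe set gives a log2 signal. Whether separate mice were used for the 2 arrays of a group is not said, so the spread between them may be partly technical.

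Creatine kinases move a phosphate group between ATP and creatine, and phosphocreatine serves as a store from which ATP is remade quickly where it is used. The mitochondrial enzyme sits between the inner and outer mitochondrial membranes and makes phosphocreatine from newly made ATP, while the cytosolic enzyme remakes ATP near ion pumps and synapses. In brain the main pair is Ckmt1, the ubiquitous mitochondrial form, with Ckb, the brain cytosolic form. Ckmt2 and Ckm are the forms of striated muscle. Creatine itself is made from arginine and glycine by Gatm and then methylated by Gamt, or is taken up through Slc6a8.

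RefSeq's table of gene starts (GRCm38.p6) held 6 of the 7 genes. The 250 bases upstream of the start are shown for the 2 brain kinases, because their signals differed in size of change while their enzymes work as a pair. The Ckmt1 sequence lies at chr2:121357526-121357775 on the plus strand and the Ckb sequence at chr12:111672339-111672588 on the minus strand. Capitals mark matches, on either strand, to TATAAA, the sequence of a TATA box, to CCAAT, to GGGCGG, a GC box, and to AAGGTCA, the core site that oestrogen-related receptors recognise.
Ckmt1: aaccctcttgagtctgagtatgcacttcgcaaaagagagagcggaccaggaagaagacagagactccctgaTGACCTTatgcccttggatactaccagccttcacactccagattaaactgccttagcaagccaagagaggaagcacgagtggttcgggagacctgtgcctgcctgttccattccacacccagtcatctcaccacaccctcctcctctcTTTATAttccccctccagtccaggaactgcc
Ckb: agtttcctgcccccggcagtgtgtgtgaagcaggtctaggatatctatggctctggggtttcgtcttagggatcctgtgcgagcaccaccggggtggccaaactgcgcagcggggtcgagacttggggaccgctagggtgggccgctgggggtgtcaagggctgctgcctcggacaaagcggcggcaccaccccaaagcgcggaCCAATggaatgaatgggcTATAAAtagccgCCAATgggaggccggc
The TATA box match of Ckmt1 began 31 bases upstream of the start, read on the opposite strand, and that of Ckb 28 bases upstream on the gene's own strand. Of the 32851 starts in the table, 12.4% held this sequence in the same window. The AAGGTCA match of Ckmt1, on the opposite strand, began 179 bases upstream and was not seen in Ckb. This sequence was found upstream of 4.08% of all starts. Ckb held 2 matches to CCAAT, found at 33.8% of all starts, and neither window held GGGCGG, found at 32.7%. The matches did not overlap each other. GC bases made up 52.8% of the Ckmt1 window and 62.8% of the Ckb window, against a median of 52.4% over all starts, and the windows held 4 and 16 CpG sites. The table lists another Ckmt1 start further downstream, whose window held neither TATAAA nor AAGGTCA but 1 match to CCAAT, with 56.0% GC bases. Whether the probe set of Ckmt1 tells the starts of the gene apart was not tested.

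Ckmt1 had the clearest separation of the groups among the 7 genes. Its log2 signal was 11.79 and 11.58 on the TCQA arrays and 12.75 and 12.79 on the control arrays. Both TCQA arrays lay below both control arrays, with a gap of 0.96 between the groups against a range of 0.21 within the TCQA pair and 0.04 within the control pair. The difference in means was -1.08 (SE 0.18), a 2.12-fold lower signal with TCQA. By size of difference in either direction Ckmt1 had rank 74 among the 22206 gene probe sets, and 0.329% of them had a larger one. Of the 2289 probe sets whose mean signal lay within 1 log2 unit of that of Ckmt1, 5 had a difference at least as large, Ckmt1 among them, and the median absolute difference in this window was 0.14. The other named genes of the 5, singled out after their values were seen, were Trp53i11, at 1.11 (SE 0.17), and the immediate early gene Nr4a1, at -1.60 (SE 0.36), whose groups did not overlap, and Ttr, whose groups did.

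Across the array, 0.171% of gene probe sets (38) met the depositors' criterion on the lower side, which asks for a fold change over 2 and an unadjusted p under 0.05, and 0.374% met it in either direction. Of the 7 genes 1 was among them, Ckmt1, for which the group was put together. So this count, and the rank and the counts above, are no test of the group or of Ckmt1. After Benjamini-Hochberg adjustment over the 22206 probe sets limma called 0 (0%), while 1386 (6.24%) had an unadjusted p under 0.05. The groups did not overlap for 3 of the 7 genes, against 36.6% of all gene probe sets. Of these 3, Ckmt1 and Ckm were lower with TCQA, as were 17.8% of all gene probe sets, and Gatm was higher, as were 18.9%. A 2-array group gives each single gene little precision, and in bulk tissue fewer cells of a type and less RNA per cell cannot be told apart.

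**Figure D1:**
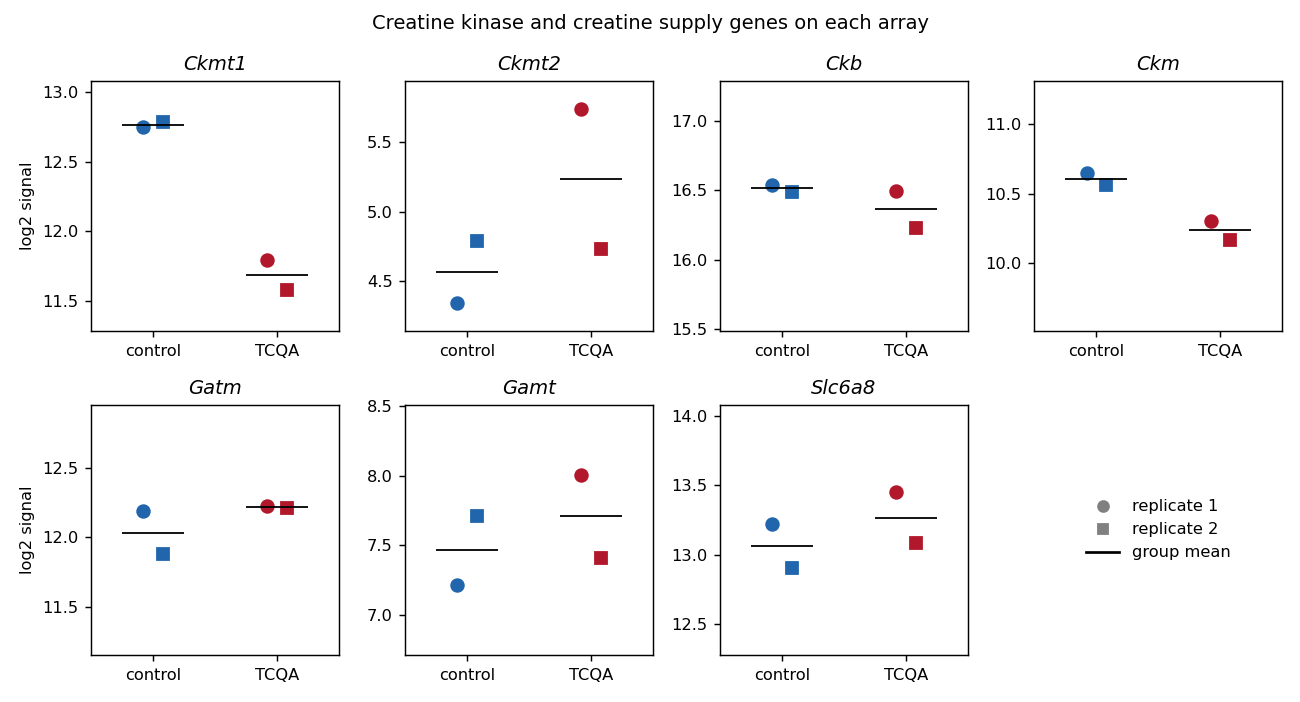
Log2 signal of the 7 genes on each array, 1 panel per gene, with the control arrays in blue, the TCQA arrays in red, circles for replicate 1, squares for replicate 2 and a line at the group mean. All panels span the same number of log2 units. The Ckmt1 arrays separate by 0.96 between groups, whereas those of Ckmt2, Ckb, Gamt and Slc6a8 overlap.

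Ckb, the cytosolic partner of Ckmt1, had signals of 16.49 and 16.23 with TCQA, against 16.54 and 16.48 in control. TCQA replicate 2 was the lowest array and the other 3 lay within 0.06 of each other, so the groups overlapped by a narrow margin. The difference was -0.15 (SE 0.19). The gene table lists 2 pseudogenes, Ckb-ps1 and Ckb-ps2, and whether the probes of Ckb also bind these was not tested. Ckb was brighter than 99.5% of the negative control probe sets.

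Ckm, the muscle cytosolic form, had signals of 10.30 and 10.17 with TCQA, against 10.65 and 10.57 in control. The groups did not overlap and were 0.26 apart, and the difference was -0.37 (SE 0.18), a 1.29-fold lower signal. Its direction was that of Ckmt1, at about the size that 16.6% of gene probe sets exceeded. Ckmt2, the muscle mitochondrial form, was dim, with signals of 5.74 and 4.73 with TCQA, against 4.34 and 4.79 in control. The groups overlapped, TCQA replicate 1 stood above the other arrays, and 10.7% of the negative control probe sets were dimmer than Ckmt2 on average. Its difference of 0.67 (SE 0.35) went the other way from those of the other 3 kinases, and it was 0.16 without TCQA replicate 1 and 1.17 without TCQA replicate 2.

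Striated muscle genes were read beside the muscle forms of the kinase. Of 14 listed, among them the skeletal actin gene Acta1 with signals between 5.23 and 5.56, 13 had both group means below the negative control median. The summed linear signal of the list was 677 to 722 with TCQA and 665 to 682 in control. An unadjusted p under 0.05 in limma was found for 2 higher and 2 lower genes. They made up 28.6% of the list, against 6.24% of all gene probe sets, and 0 passed after adjustment. Ckm itself was brighter than 92.2% of the negative controls.

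The genes of creatine supply had small differences, all on the higher side with TCQA. Gatm, which makes the creatine precursor guanidinoacetate, had signals of 12.23 and 12.21 with TCQA, against 12.19 and 11.88 in control. The groups were 0.02 apart, less than the range of 0.31 within the control pair, and the difference was 0.19 (SE 0.19). Gamt, which methylates guanidinoacetate to creatine, had signals of 8.01 and 7.41 with TCQA, against 7.21 and 7.71 in control. The groups overlapped, and the difference of 0.24 (SE 0.28) changed sign without TCQA replicate 1, at -0.06, and without control replicate 1, at -0.01.

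The transporter gene Slc6a8 had signals of 13.45 and 13.08 with TCQA, against 13.22 and 12.91 in control. Replicate 1 was the higher array in each group, the groups overlapped, and the difference was 0.20 (SE 0.22). Without TCQA replicate 1 it was 0.02 and without control replicate 2 it was 0.04. Each of the 3 supply genes had a difference smaller than its SE.

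**Figure D2:**
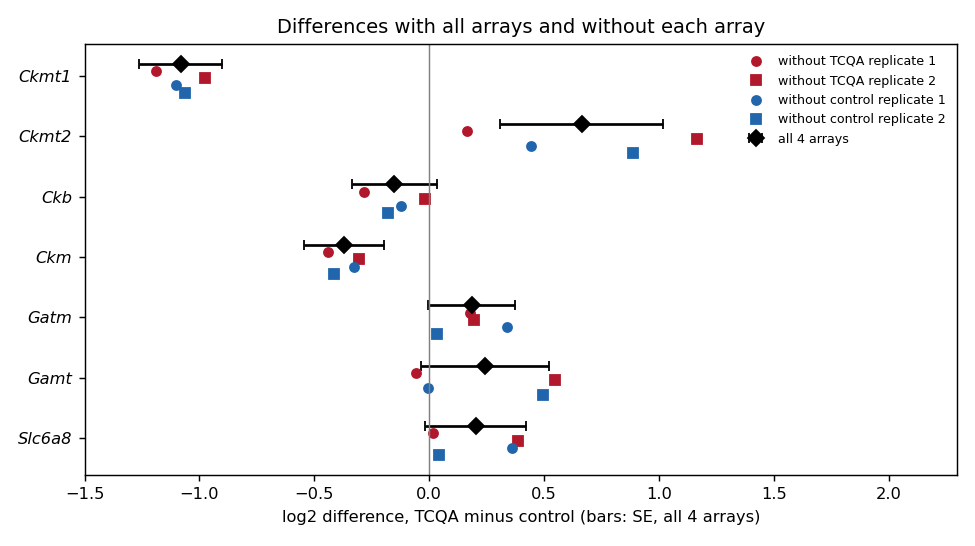
Log2 difference, TCQA minus control, of each of the 7 genes (x axis) with all 4 arrays (black diamonds, bars are the SE) and after leaving out 1 array (red, a TCQA array; blue, a control array; circles, replicate 1; squares, replicate 2). Ckmt1 lies between -1.19 and -0.975 without each array in turn, and Gamt falls on both sides of 0.

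The arrays differed in markers of neighbouring tissue and in immediate early genes, listed as an activity state of neurons, and Ckmt1 was set beside these. Choroid plexus markers, 8 of 10 measured and 5 of those under the negative control median, had a summed linear signal of 749 on control replicate 1 and 89462 on control replicate 2, and of 5693 and 33716 on the TCQA arrays. Their main gene Ttr, which encodes transthyretin, ran from 7.49 to 16.42 over the control arrays. Ckmt1 differed by 0.04 between the same control arrays, and the part of this tissue in its difference between the groups was not tested. Meningeal fibroblast markers, all 10 measured, summed to 5709 and 7037 with TCQA and to 2687 and 6453 in control. Immediate early genes, 10 of 10 with a lower mean with TCQA, summed to 26195 to 30497 with TCQA and 42264 to 76209 in control. An unadjusted p under 0.05 in limma was found for 7 of the 10, all lower, against 2.86% of all gene probe sets on that side. After adjustment 0 passed. The groups overlapped for Fosb, Egr1 and Egr2 and did not for the other 7, against 17.8% of all gene probe sets not overlapping on the lower side. The part of the meningeal markers and of the immediate early genes in the Ckmt1 difference was not tested. For the immediate early genes it cannot be told apart from that of TCQA, because both control arrays had the higher sums.

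Neuron markers, which speak to the cells where Ckmt1 is mainly transcribed, were centred on 0.00 by their median difference. A higher mean was seen for 5 of 10, and all 10 were above the negative control median. Their summed signal was 641603 to 703452 with TCQA and 600987 to 677618 in control. The list ran from -0.33 for Slc17a7, the vesicular glutamate transporter of excitatory neurons, to 0.62 for Snap25, a synaptic vesicle fusion protein. Astrocyte markers, which mark cells that take part in creatine synthesis, had 8 of 10 higher and a median of 0.22, and oligodendrocyte markers 5 of 9 higher and a median of 0.03, with Mbp, a main myelin protein, at -0.10. Endothelial markers, for the cells through which Slc6a8 brings creatine into the brain, had 6 of 10 higher and a median of 0.10. They summed to 25532 and 25832 with TCQA and to 20661 and 19106 in control. Thalamic neuron markers had 9 of 10 higher, a median of 0.49, and 2 that met the depositors' criterion, both higher. They summed to 9661 and 13778 with TCQA and to 4515 and 7474 in control. The part of these 2 lists in the Ckmt1 difference was not tested. It cannot be told apart from that of TCQA, because both TCQA arrays had the higher sums.

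The genes of proteins that work with mitochondrial creatine kinase went both ways. Of 16 listed carriers, porins and contact site proteins 15 were measured, 0 had an unadjusted p under 0.05 in limma, and the median difference was 0.00, with 7 higher and 8 lower. Slc25a5, a carrier that exchanges ADP for ATP across the inner membrane, had signals of 15.50 and 15.43 with TCQA, against 14.84 and 15.22 in control, a difference of 0.44 (SE 0.20). The outer membrane porin gene Vdac2 differed by 0.27 (SE 0.18). Chchd6, a subunit of the complex that holds cristae junctions, was at 9.70 and 9.81 with TCQA and at 10.05 and 10.18 in control, a difference of -0.36 (SE 0.18), and Ppif, the regulator of the permeability transition pore, differed by -0.20 (SE 0.19). These 4 were named for the smallest unadjusted p in limma among the genes whose groups did not overlap. Non-overlap was seen for 6 of the 15 (3 higher and 3 lower), against 36.6% of all gene probe sets.

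Other enzymes that balance adenine nucleotides, the adenylate kinases and AMP deaminases, had 9 of 12 measured, a median of 0.01 and 0 with an unadjusted p under 0.05. Without TCQA replicate 2 the count was 2, 1 in each direction, and without TCQA replicate 1 the median was -0.13. Ampd2, which deaminates AMP, differed by 0.41 (SE 0.23) and Ak1, which makes ATP and AMP from ADP, by -0.22 (SE 0.19). The AMP-activated protein kinase, the sensor of low ATP, had all 9 listed subunit and upstream kinase genes measured, with 0 past that p and a median of -0.05. Its regulatory beta subunits went opposite ways, Prkab2 at -0.40 (SE 0.20) and Prkab1 at 0.44 (SE 0.22), and the upstream kinase gene Stk11 differed by -0.43 (SE 0.19). Prkag3, a gamma subunit, differed by 0.35 (SE 0.17). Of the 9 genes of this list, the groups did not overlap for 3 higher and 4 lower ones. Over all gene probe sets the shares were 18.9% higher and 17.8% lower. Mitochondrial biogenesis regulators had 15 of 16 measured, 0 past that p and a median of -0.06, with the transcription factor gene Nrf1 at -0.18 (SE 0.18) and the mitochondrial polymerase subunit Polg2 at -0.26 (SE 0.18). Tfb1m, a methyltransferase of mitochondrial ribosomal RNA, was dim, at 7.11 and 7.46 with TCQA and 7.01 and 6.99 in control, near the negative control median.

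Upstream of creatine synthesis, the genes of arginine and glycine supply had 15 of 16 measured, 2 with an unadjusted p under 0.05 (13.3%, against 6.24% of all gene probe sets), both higher, and a median of 0.08. These were Slc7a2, a transporter of arginine and other cationic amino acids, and the dim gene Shmt1, the cytosolic enzyme that interconverts serine and glycine. Slc7a2 had signals of 8.10 and 8.57 with TCQA, against 7.92 and 7.58 in control, a difference of 0.58 (SE 0.24). Slc7a3, of the same transporter family, differed by 0.49 (SE 0.20), the mitochondrial enzyme gene Shmt2 by -0.42 (SE 0.22), and Azin2, an antizyme inhibitor, by -0.38 (SE 0.20). The count and its direction changed when single arrays were left out, and the count was 0 with no moderation of the variance. The S-adenosylmethionine cycle, which provides the methyl group that Gamt uses, had 12 of 14 measured, 0 past that p and a median of 0.10. Without TCQA replicate 1 the count was 3, and without TCQA replicate 2 the median was -0.06. Mat2b, the regulatory subunit of the enzyme that makes S-adenosylmethionine, differed by -0.44 (SE 0.20), Ahcyl1, a relative of the enzyme that clears its product, by -0.21 (SE 0.17), and Mtrr, which reactivates methionine synthase, by 0.27 (SE 0.18).

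Among transporters related to Slc6a8, 8 of the 9 listed were measured. An unadjusted p under 0.05 was found for 3 of them (37.5%), all higher, against 6.24% of all gene probe sets, and 0 passed after adjustment over all probe sets. The median was 0.25, against 0.01 for all gene probe sets. Slc6a11, a GABA transporter of astrocytes, had signals of 13.88 and 14.18 with TCQA, against 13.23 and 13.56 in control, a difference of 0.63 (SE 0.21). Slc6a13, a GABA and taurine transporter that is also in the meningeal list above, was at 8.52 and 8.61 with TCQA and at 7.98 and 7.90 in control, a difference of 0.63 (SE 0.17). Slc6a15, a neuronal transporter of neutral amino acids, differed by 0.45 (SE 0.18), and the proline transporter gene Slc6a7 by -0.40 (SE 0.17). The taurine transporter gene Slc6a6 was at 0.08 (SE 0.18) and Slc16a12, which also carries creatine, at 0.21 (SE 0.22). Without 1 array the median was 0.07 (TCQA replicate 1), 0.42 (TCQA replicate 2), 0.15 (control replicate 1) or 0.41 (control replicate 2), and the count was 2, 1, 1 and 1. The median of the meningeal markers was 0.51 (10 of 10 higher) and that of the astrocyte markers 0.22, and their part was not tested.

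The ion pumps, large users of ATP in neurons, had 8 of 12 measured and a median of 0.08. Atp2a3, a calcium pump of the endoplasmic reticulum, had signals of 7.83 and 8.20 with TCQA, against 7.35 and 7.54 in control, a difference of 0.57 (SE 0.21) and the 1 with an unadjusted p under 0.05. It did not pass without TCQA replicate 2, without control replicate 1 or without control replicate 2. The plasma membrane calcium pump gene Atp2b3 differed by -0.24 (SE 0.19), while Atp2b1 was at -0.03 (SE 0.17), and the sodium pump subunit Atp1b2 was at 0.20 (SE 0.20). Over the 8 lists together 91 of 104 genes were measured, and 6 were higher and 0 lower at an unadjusted p under 0.05, a share of 6.59% against the 6.24% of all gene probe sets, which were higher in 3.38% and lower in 2.86%. None of the 91 met the depositors' criterion (limma, 0) or passed after adjustment.

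**Figure D3:**
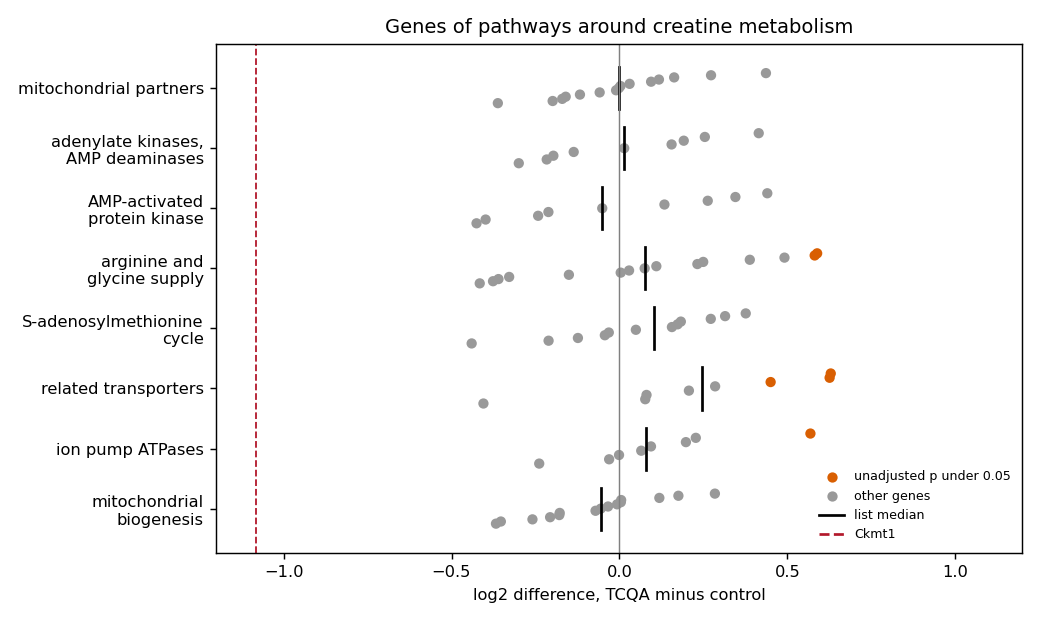
Log2 difference, TCQA minus control, of each measured gene of the 8 pathway lists (x axis), 1 row per list, with genes at an unadjusted p under 0.05 in limma in orange, the others in grey and the list median as a black bar. The dashed line marks Ckmt1 at -1.08, and no gene of the 8 lists lies below -0.44.

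The genes beside Ckmt1 on its chromosome were read as well, taking the 5 named and measured genes on each side in RefSeq's order. Of these 10, 3 had a lower and 7 a higher mean with TCQA, the median difference was 0.09, and 0 had an unadjusted p under 0.05 in limma. The differences ran from -0.35 (SE 0.23) for Ppip5k1, an inositol pyrophosphate kinase that lies next to Ckmt1, to 0.40 (SE 0.17) for Adal, an adenosine deaminase-like enzyme. Ppip5k1 was at 6.87 and 6.66 with TCQA and at 7.37 and 6.85 in control, so that its groups overlapped. Strc, the other direct neighbour, was dim and differed by 0.07 (SE 0.17), and Map1a, a microtubule protein of neurons, by 0.12 (SE 0.18).

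**Figure D4:**
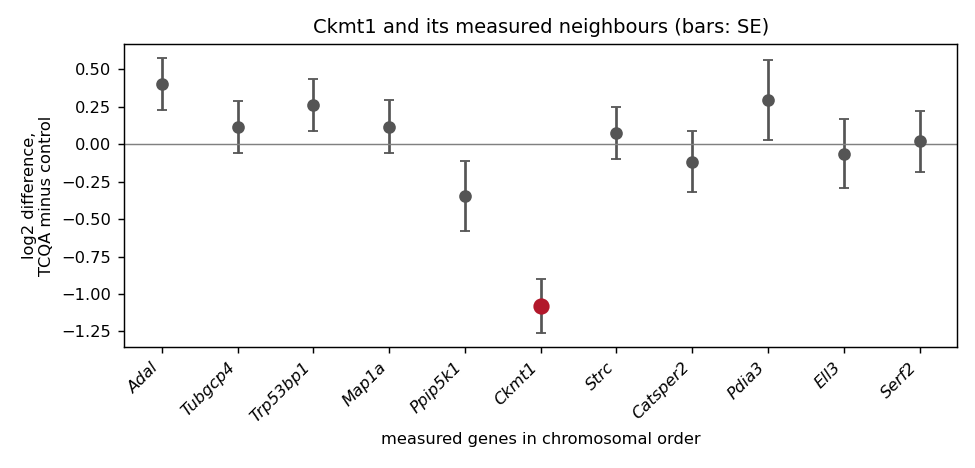
Log2 difference, TCQA minus control (y axis), of Ckmt1 (red) and of its 5 measured neighbours on each side in chromosomal order (x axis), with bars for the SE. The neighbours lie between -0.35 and 0.40 and Ckmt1 at -1.08.

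The named genes whose 4 array values, each taken relative to the gene's own mean, were closest to those of Ckmt1 were looked for among 10021 genes whose mean over the 4 arrays reached the median of all genes. The closest was Eefsec, the elongation factor for selenocysteine, with a root mean square distance of 0.12 log2 units over the 4 arrays. It had signals of 8.59 and 8.52 with TCQA, against 9.59 and 9.39 in control. The next were Dpp3, a dipeptidyl peptidase, at 0.15, and Cdk5r2, the neuronal activator p39 of the kinase Cdk5, also at 0.15. Cdk5r2 was at 12.36 and 12.17 with TCQA and at 13.22 and 13.00 in control. Tcl1b4 followed at 0.16, with TCQA arrays at 6.88 and 6.90 that lay under the negative control median, which makes its profile less certain. The semaphorin receptor gene Plxnd1 and the active zone gene Bsn were at 0.17 each. The 6 genes differed by -0.78 to -0.93 between the groups, which follows from their choice by likeness to Ckmt1 on these same arrays. This order rests on 4 arrays.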

How the data were processed

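The deposited values were log2 signals, 1 per probe set and array, which the authors made with SST-RMA in the Transcriptome Analysis Console 4.0.2, per the labels' protocols. SST-RMA normalizes arrays to each other, so a probe set can be compared between arrays. Different probe sets are not put on a common scale. Readings of brightness, sums over genes and comparisons with negative controls are therefore rough guides. The table held 28846 probe sets, and the 6640 control probe sets were set aside. Of the other 22206, 19572 had 1 symbol in the platform annotation, 0 several and 2634 none here. For a symbol with several probe sets the brightest was used.

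Groups were taken from the titles. The comparison of TCQA with control used limma 3.58.1 under R 4.3.3 (lmFit, eBayes, two-sided, Benjamini-Hochberg over 22206 probe sets), with 2 residual and 4.23 prior degrees of freedom. The median negative control lay at 7.17 to 7.32 and the median gene at 7.12 to 7.17. Array correlations across genes were 0.991 to 0.993. The number of arrays limits the precision. Detection calls were not used here. The members, lists, tests and naming rules were chosen with earlier results of these data known. Pathway genes were named when they met the depositors' criterion, or, up to 4 a list, by smallest p among genes with non-overlapping groups and a higher group mean at or above the median of 7.14. Further genes were named to complete a family or a count. Alternatives were each array left out, the replicate number as a block, a variance trend, quantile normalization, bright probe sets only and no moderation.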

Additional observations from a re-analysis of the deposited data

How the results depend on the processing

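Ckmt1 stayed between -1.19 and -0.975 without each array in turn and was -1.09 after quantile normalization. Without each array in turn Ckm ran from -0.44 to -0.30, Ckb from -0.28 to -0.02, Gatm from 0.03 to 0.34, Gamt from -0.06 to 0.55, Slc6a8 from 0.02 to 0.39 and Ckmt2 from 0.16 to 1.17. No member moved by more than its replicate SD under quantile normalization.

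The count of probe sets with an adjusted p under 0.05 in limma was 0 with all arrays and 0 to 4 without each array in turn, the 4 being without TCQA replicate 1. The count meeting the depositors' criterion was 83 with all arrays, 160 to 291 without each array in turn (218 and 291 without TCQA replicates 1 and 2, 160 and 231 without control replicates 1 and 2), 36 among the 11103 brighter probe sets, where fewer were tested, and 25 with no moderation. With the replicate number as a block it was 92 and the adjusted count 0. Same-numbered arrays had deviations from their group means that correlated at 0.05 across probe sets, and the labels do not say that the numbers pair mice. The block left every difference as it was, and took the count of related transporters with an unadjusted p under 0.05 from 3 to 2. With a variance trend, and also among brighter probe sets, this transporter count was 4, with 3 higher and 1 lower. With no moderation it was 2, with 1 higher and 1 lower. Of the 5 pathway lists with a count of 0 at an unadjusted p under 0.05, those of mitochondrial partners, the AMP-activated protein kinase and the S-adenosylmethionine cycle had 2, 1 and 2 with a variance trend and 1 each among brighter probe sets. Without 1 array the highest counts were 3 for the S-adenosylmethionine cycle, 2 for the adenylate kinases and 1 for each of the other 3. Low signal limits dim genes such as Ckmt2 and Shmt1, which lay below the negative control median in both groups.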
